A study of Mus musculus with 12 samples.

Results

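The nuclear-encoded subunits of the 5 complexes of the mitochondrial respiratory chain were followed across 12 mouse livers. Members were taken by gene symbol alone: Nduf genes of the a, b, c, s and v series for complex I, Sdha to Sdhd for complex II, symbols starting with Uqcr for complex III, Cox4 to Cox8 for complex IV and Atp5 for complex V. The rule found 83 of the 24532 genes in the table, with 36 members for complex I, 4 for complex II, 8 for complex III, 18 for complex IV and 17 for complex V. The patterns leave out *Cyc1* (cytochrome c1 of complex III), *Ndufab1* (the acyl carrier protein of complex I) and *Atpif1*, which are described with the other genes of the chain. They take in *Atp5s*, *Atp5sl* and *Cox7a2l*, which are not subunits, and *Ndufa4*, which is kept here under its symbol although it is known as a subunit of complex IV.

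The livers came from male C57BL/6 mice in 4 groups of 3, aged 10 to 12 weeks at the start. *Ahr* fl/fl mice carrying Cre under the albumin promoter, which is active in hepatocytes, are called *Ahr* HKO, and their fl/fl littermates without Cre are called WT, so both genotypes carry the floxed allele of *Ahr* exon 2. For 5 weeks they received either the Lieber-DeCarli liquid diet with 5% ethanol by volume, which is 36% of calories (EtOH), or an isocaloric control liquid diet (Con). Poly(A) RNA of whole liver was sequenced, so fewer cells of a type and less RNA per cell cannot be told apart. Each test sets a difference between groups against the spread between livers, with 3 livers per group.

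The respiratory chain is the route by which mitochondria burn fuel. Complex I takes electrons from NADH and complex II takes them from succinate. Both hand them to coenzyme Q, complex III passes them on to cytochrome c, complex IV gives them to oxygen, and complex V uses the proton gradient that complexes I, III and IV build to make ATP. Hepatocytes are rich in mitochondria, and the oxidation of ethanol in them produces NADH that the chain must reoxidize. AhR is a ligand-activated transcription factor that binds DNA at sites with a GCGTG core. The comparisons address whether loss of hepatocyte AhR, ethanol, or both changed the transcripts of the chain.

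Levels are given as FPKM, the deposited counts scaled to gene length and library, where genes are compared with each other. Groups are compared as CPM, counts scaled to library size with TMM factors, and tested on counts with the quasi-likelihood test of edgeR at an adjusted *P* value under 0.05 over 14038 tested genes. Of the 83 members, 78 were tested, which includes all 36 of complex I, all 4 of complex II, all 8 of complex III, 13 of complex IV and all 17 of complex V. *Cox4i2*, *Cox6a2* and *Cox8b* had 0 to 10 counts per library and were not tested, and *Cox8c* and *Cox7b2* had no count in any library. Libraries held 46306518 to 74336255 counts, of which the members took 0.944% to 1.32%. The *Ahr* transcript was counted at 16.6 to 20.1 CPM in WT Con, 20.8 to 30.5 in WT EtOH, 41.3 to 65.5 in *Ahr* HKO Con and 24.7 to 41.8 in *Ahr* HKO EtOH. On the control diet it was higher, not lower, in *Ahr* HKO (log2 FC 1.63 ± 0.19 SE, adjusted *P* = 0.00167). Counts per gene do not separate the deleted exon, so they check nothing about the genotype, and *Ahr* HKO stands here for the libraries labelled so.

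For each complex, the 120 bases before the start of the member with the largest called rise in *Ahr* HKO EtOH are shown, to set the promoter letters beside those responses. They are from RefSeq on GRCm38.p6, read 5′ to 3′ on the strand of the gene, and span chr17:31519995-31520114 (plus strand) for *Ndufv3*, chr4:140961151-140961270 (plus) for *Sdhb*, chr10:80406822-80406941 (minus) for *Uqcr11*, chr5:115348959-115349078 (minus) for *Cox6a1* and chr7:25619294-25619413 (plus) for *Atp5sl*. Capitals mark matches, on either strand, to the AhR core (GCGTG), the ETS motif (CCGGAAG), the NRF1 motif (GCGCA, any base, then GCGC) or the YY1 motif (ATGGCGG).
Ndufv3: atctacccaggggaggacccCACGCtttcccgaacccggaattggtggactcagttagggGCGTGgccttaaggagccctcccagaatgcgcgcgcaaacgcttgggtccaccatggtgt
Sdhb: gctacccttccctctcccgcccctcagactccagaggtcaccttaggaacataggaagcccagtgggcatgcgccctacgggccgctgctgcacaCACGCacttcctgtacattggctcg
Uqcr11: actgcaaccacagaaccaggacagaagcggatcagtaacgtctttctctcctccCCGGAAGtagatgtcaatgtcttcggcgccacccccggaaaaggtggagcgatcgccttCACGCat
Cox6a1: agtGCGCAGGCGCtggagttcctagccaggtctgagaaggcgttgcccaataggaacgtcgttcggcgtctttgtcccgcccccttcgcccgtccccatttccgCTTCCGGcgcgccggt
Atp5sl: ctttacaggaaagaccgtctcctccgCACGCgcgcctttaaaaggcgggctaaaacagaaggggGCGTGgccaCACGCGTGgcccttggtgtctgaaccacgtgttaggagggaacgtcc

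NRF1 and ETS factors such as GABP are known regulators of respiratory chain genes. Windows from 250 bases before to 50 after the start were found for 69 members. The NRF1 motif was in 16 of the 69 windows, against 4.60% of the 32851 windows of all genes. The ETS motif was in 15 of 69, against 8.86%, the YY1 motif in 10 of 69, against 4.05%, and the AhR core in 36 of 69, against 32.4%. The AhR core is a short motif without its flanks, and its matches in the *Atp5sl* stretch include a pair that overlaps. Among members with a window, the core was in 19 of the 29 that rose in *Ahr* HKO EtOH against *Ahr* HKO Con and in 16 of the 38 tested ones that were not called. The NRF1 motif was in 9 of the 29 and 7 of the 38, the ETS motif in 6 and 9, and the YY1 motif in 4 and 6. These are counts of letters and no test was made of them.

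Mean FPKM over the 12 livers was highest for *Atp5b* (582), the catalytic beta subunit of ATP synthase, *Cox4i1* (523) and *Cox6a1* (515), the liver forms of subunits IV and VIa of cytochrome c oxidase, and *Ndufa4* (433). Complex II was even, from 122 for *Sdhc* to 176 for *Sdha*. Complex III ran from 101 for *Uqcrc2* to 310 for *Uqcr11*, and complex I from 5.96 for *Ndufs5* to 433 for *Ndufa4*. The isoforms of complex IV known from other tissues stood far below the rest, with *Cox6b2* at 0.171, *Cox7a1* between it and the other subunits, and *Cox4i2*, *Cox6a2* and *Cox8b* under 0.04. The muscle markers *Ckm*, *Acta1*, *Myh4* and *Mb* were at 0 in every library, and *Tnnt3*, the fifth of that list, was at 0 in all but liver 2 of WT EtOH, with 0.143 CPM.

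**Figure D1:**
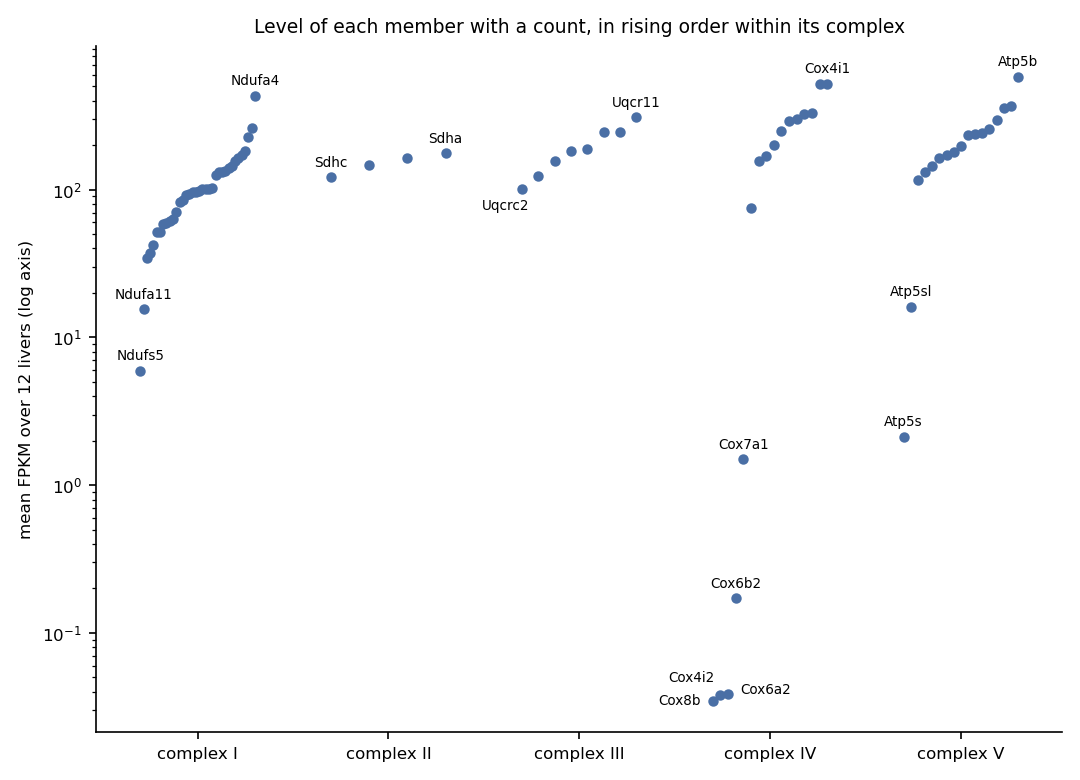
Mean FPKM over the 12 livers (log axis) of each member with a count, in rising order within complexes I to V, each point a gene. Complexes II and III lie between 101 and 310 FPKM, while *Ndufs5*, *Atp5s* and the isoforms *Cox7a1*, *Cox6b2*, *Cox4i2*, *Cox6a2* and *Cox8b* lie far lower.

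The low value of *Ndufs5*, an accessory subunit of complex I, goes with an annotated copy. The processed pseudogene *BC002163*, which holds 12.7% of the distinct 100-base windows of the *Ndufs5* transcripts, was listed at 75.4 to 108 FPKM, against 4.25 to 7.50 for *Ndufs5* itself. How reads were divided between them was not tested. Of the 83 members, 30 shared at least 1 such window with another annotated gene and 11 shared over 10% of them, among them *Atp5g2* (34.7%), *Atp5o* (27.9%), *Ndufb6* (24.0%), *Ndufb4* (16.0%), *Atp5h* (11.5%) and *Ndufa12* (11.4%). Windows matching on the opposite strand were counted too, and the share of *Atp5o* includes another entry of the same name and antisense entries. This share is not a measure of error, and what the sharing did to the values of these genes was not tested.

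The share of each complex in the members' summed FPKM differed little between the group means. Complex I held 31.0% ± 0.570 (SD, n = 3) in WT Con, 30.6% ± 0.612 in WT EtOH, 30.5% ± 0.142 in *Ahr* HKO Con and 31.0% ± 0.244 in *Ahr* HKO EtOH. Complex II held 4.51% to 4.85%, complex III 11.8% to 12.1%, complex IV 23.6% to 24.3% and complex V 28.0% to 28.8% in the means of the 4 groups.

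Ethanol went with higher levels in *Ahr* HKO livers, where all 78 tested members had a positive log2 fold change (FC) and 31 of them rose, with a median of 0.39, a 1.31-fold difference. In WT livers the median was 0.02, no member rose, and 1 fell. On the control diet the *Ahr* HKO livers had the lower values, with 72 of 78 members negative, a median of −0.14 and 3 members called lower. On the ethanol diet they had the higher values, with 72 of 78 positive, a median of 0.21 and 1 member called higher.

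Against the background of all genes, the 31 of 78 members that rose in *Ahr* HKO EtOH against *Ahr* HKO Con are 39.7% of the set, where 15% of all tested genes (2108 of 14038) rose and 16.1% fell. The other comparisons called 0 to 3 members in either direction. In WT EtOH against WT Con, 4.24% of all genes rose and 4.48% fell, against 0 and 1 of 78 members. There, 3 members were positive and 3 negative at an unadjusted *P* under 0.05 in edgeR, beside 3665 of 14038 tested genes in both directions. DESeq2 called 2 members higher and 2 lower. Between the genotypes on the control diet 15.3% of all genes were higher and 14.4% lower in *Ahr* HKO, against 0 and 3 members. At an unadjusted *P* under 0.05 in edgeR, 0 and 13 of the 78 members passed, beside 5916 of 14038 tested genes in both directions. The 13 are therefore no excess over all genes, and DESeq2 called 0 and 5 members. Between the genotypes on the ethanol diet 0.684% of all genes were higher and 0.378% lower, against 1 and 0 members. At an unadjusted *P* under 0.05 in edgeR, 34 and 1 of the 78 members passed, beside 2950 of 14038 tested genes in both directions. DESeq2 called 17 and 0 members. The share of all tested genes that DESeq2 called is not given here, so its counts in these comparisons have no background beside them. The median of all tested genes lay between −0.03 and 0.01 in every comparison.

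**Figure D2:**
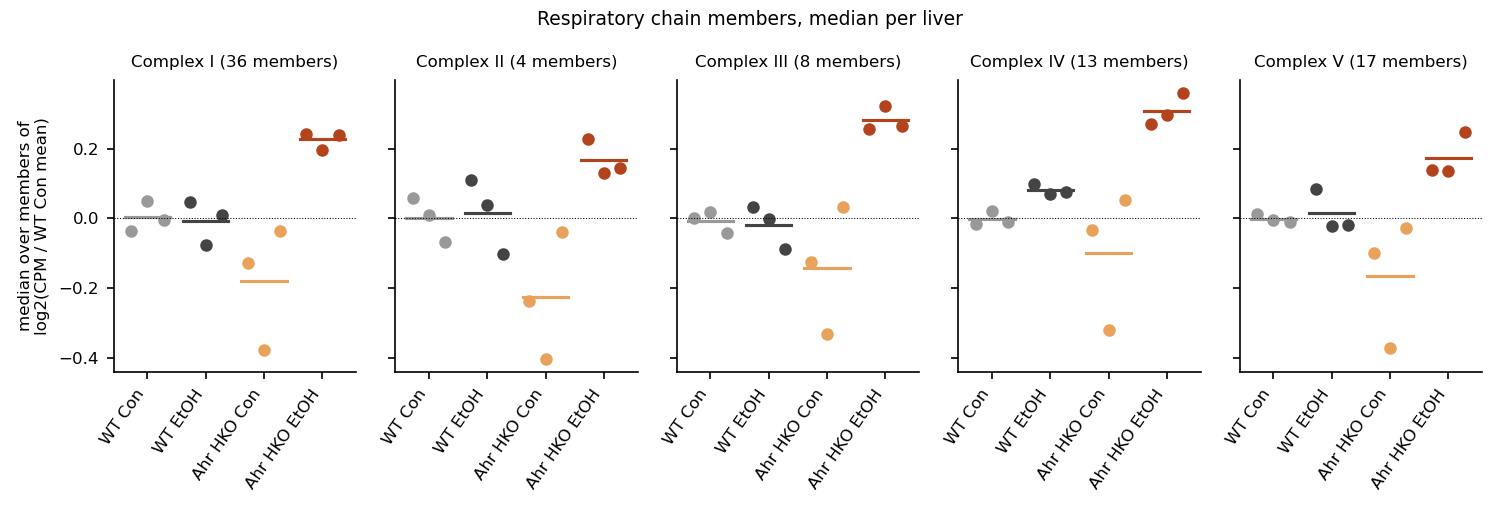
For each complex, the median over its tested members of log2(CPM / WT Con mean) in each of the 12 livers (points, 3 per group), with the mean of the 3 livers as a line. The 3 *Ahr* HKO EtOH livers lie above the other 9 in every complex, and liver 2 of *Ahr* HKO Con is the lowest in every complex.

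One liver weighs on these values. In *Ahr* HKO Con, the median of all 78 members relative to WT Con was −0.10 in liver 1, −0.36 in liver 2 and −0.01 in liver 3, and liver 2 held the lowest CPM of all 12 livers for 69 of the 78 members. The 3 livers of *Ahr* HKO EtOH stood at 0.24, 0.21 and 0.25, those of WT Con at −0.02, 0.02 and −0.01 and those of WT EtOH at 0.08, −0.04 and 0.00. Without liver 2, the median of *Ahr* HKO Con against WT Con moved to −0.05, with 53 of 78 negative and 2 called lower, and the median of *Ahr* HKO EtOH against *Ahr* HKO Con moved to 0.28, with 77 of 78 positive and 12 called higher. Complex IV then had a median of 0.02 between the genotypes on the control diet, so its direction there rested on that liver. Leaving out liver 3 of *Ahr* HKO Con, the highest of the 3, gave 43 members called higher with ethanol. The share of all tested genes called in these fits without a liver is not given here. The 12 and 43 members therefore have no background beside them and do not by themselves show an excess over all genes.

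The scaling also matters for the WT comparison. On the deposited FPKM, the members summed to 12404 ± 89.9 (SD, n = 3) in WT Con, 14048 ± 324 in WT EtOH, 11430 ± 915 in *Ahr* HKO Con and 14138 ± 148 in *Ahr* HKO EtOH. On that scale the median of all genes itself shifted by 0.10 (log2) in WT EtOH against WT Con and by −0.13 between the genotypes on the ethanol diet, tested as log2(FPKM + 1) with limma. Beside these shifts, the median of the members was 0.17 in WT EtOH against WT Con, where 73 of 78 were positive and limma called 8 higher, and −0.00 in *Ahr* HKO EtOH against WT EtOH, where 37 were positive and limma called none. The higher level of *Ahr* HKO EtOH over WT EtOH was therefore found on TMM-scaled counts and not on unadjusted FPKM. With ethanol in *Ahr* HKO the median was 0.32 on log2(FPKM + 1), with 33 members called, and 0.19 after quantile normalization, with 14 called. The share of all tested genes that limma called in these fits is not given here. The 8, 33 and 14 members therefore have no background beside them and do not by themselves show an excess.

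**Figure D3:**
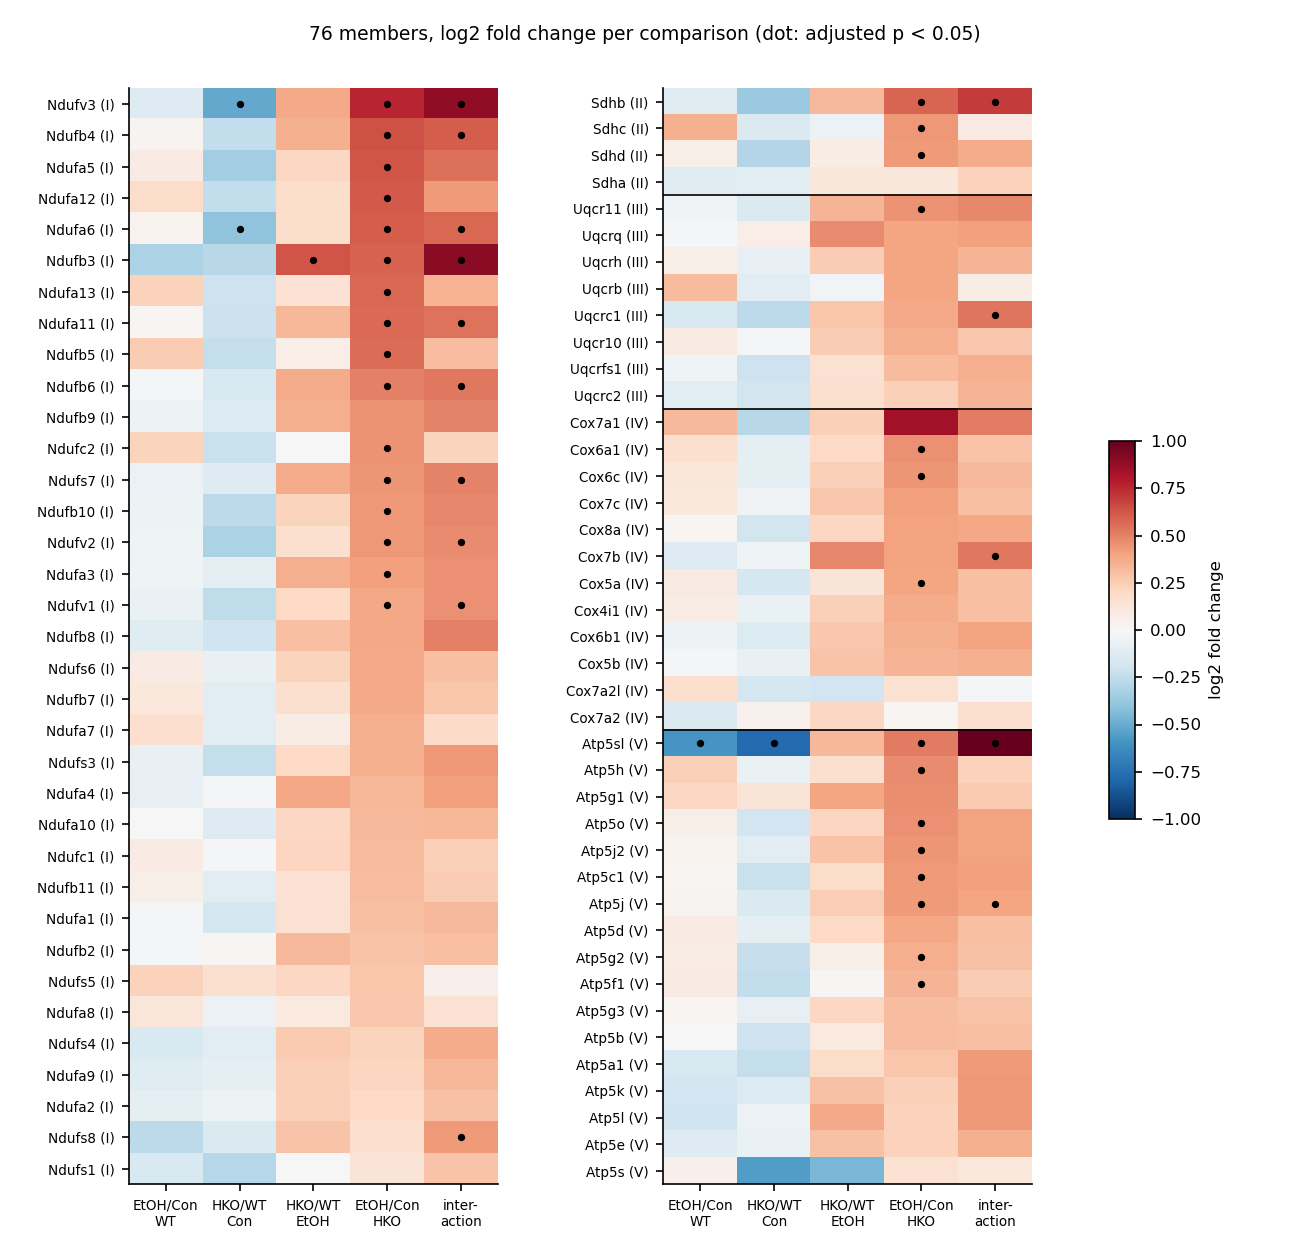
log2 FC of 76 tested members (rows, by complex) in the 4 comparisons of a pair of groups and in the interaction of genotype and ethanol (columns), from counts, with dots at an adjusted *P* value under 0.05. *Cox6b2*, with 0 to 20 counts per library, is left out, and the column for ethanol in *Ahr* HKO is positive in every row.

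Complex I, which oxidizes NADH, had the most members and 16 of the 31 called rises in *Ahr* HKO EtOH against *Ahr* HKO Con, or 11 of 12 without liver 2 of *Ahr* HKO Con. Beside the count of this and each complex below, 15% of all tested genes rose in the same comparison with all 6 libraries. All 36 members were positive, with log2 FC from 0.13 to 0.76 and a median of 0.38. In WT, 15 of 36 were positive, with a median of −0.02 and no call. On the control diet 34 of 36 were lower in *Ahr* HKO, with a median of −0.15, and on the ethanol diet 35 of 36 were higher, with a median of 0.21.

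*Ndufv3*, an accessory subunit beside the NADH-binding flavoprotein, had the widest swing of the complex. Its CPM was 60.6, 58.1 and 59.2 in WT Con, 60.7, 46.6 and 55.7 in WT EtOH, 42.3, 40.6 and 42.3 in *Ahr* HKO Con and 72.9, 68.1 and 70.7 in *Ahr* HKO EtOH. The *Ahr* HKO Con livers lay below and the *Ahr* HKO EtOH livers above all others, with no overlap between groups except between the diets in WT. It fell by 0.51 ± 0.08 (log2 FC ± SE, adjusted *P* = 0.00447) in *Ahr* HKO Con against WT Con and rose by 0.76 ± 0.09 (adjusted *P* = 0.00241) with ethanol in *Ahr* HKO. *Ndufa6*, a matrix-arm accessory subunit, was also lowest in *Ahr* HKO Con, at 123, 100.4 and 125 CPM in *Ahr* HKO Con against 145, 163 and 152 in WT Con (−0.40 ± 0.12, adjusted *P* = 0.0390). With ethanol it stood at 186, 176 and 169 CPM in *Ahr* HKO, which overlapped with the 164, 137 and 170 of WT EtOH (against *Ahr* HKO Con, 0.61 ± 0.12, adjusted *P* = 0.0108), but its fall on the control diet passed in only 1 of 6 fits on 5 livers.

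*Ndufb3*, an accessory subunit of the membrane arm, was the member called between the genotypes on the ethanol diet. Its CPM was 38.0, 37.8 and 38.5 in WT EtOH and 54.2, 58.3 and 63.8 in *Ahr* HKO EtOH (log2 FC 0.63 ± 0.09, adjusted *P* = 0.0394). Livers of WT Con had 44.7, 50.9 and 46.5, so WT EtOH was the lower group in WT, without passing the test (−0.31 ± 0.09, adjusted *P* = 0.0671). The call between genotypes was lost with limma on FPKM and when any liver but liver 1 of *Ahr* HKO EtOH was left out. *Ndufb4* and *Ndufa5*, accessory subunits of the membrane and matrix arms, rose by 0.63 ± 0.11 (adjusted *P* = 0.00702) and 0.63 ± 0.15 (adjusted *P* = 0.0210) with ethanol in *Ahr* HKO.

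The 7 core subunits carry the flavin, the iron-sulphur clusters and the quinone site. *Ndufv1*, which binds NADH and FMN, was at 132, 120 and 148 CPM in *Ahr* HKO Con and at 168, 172 and 185 in *Ahr* HKO EtOH (0.39 ± 0.11, adjusted *P* = 0.0404). The iron-sulphur subunits *Ndufs7* (0.44 ± 0.12, adjusted *P* = 0.0336) and *Ndufv2* (0.43 ± 0.12, adjusted *P* = 0.0302) also rose. *Ndufs1*, the largest subunit, was at 88.3, 91.6 and 111 CPM in *Ahr* HKO Con and 108, 103 and 108 in *Ahr* HKO EtOH, and these overlapped (0.13 ± 0.12, adjusted *P* = 0.423). In WT, all 7 core subunits had a negative log2 FC with ethanol, and none passed the test. Over the 29 accessory members, 13 rose with ethanol in *Ahr* HKO, with a median of 0.38, and 3 of the 7 core members did, with a median of 0.36.

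Complex II, succinate dehydrogenase, rose in 3 of its 4 subunits with ethanol in *Ahr* HKO, and the flavoprotein was the exception. *Sdhb*, the iron-sulphur subunit, was at 136, 122 and 180 CPM in *Ahr* HKO Con and at 218, 207 and 228 in *Ahr* HKO EtOH (0.58 ± 0.16, adjusted *P* = 0.0315). The membrane anchors *Sdhc* (0.44 ± 0.12, adjusted *P* = 0.0345) and *Sdhd* (0.43 ± 0.12, adjusted *P* = 0.0333) rose as well. *Sdha*, which holds the FAD and is the most abundant of the 4, was at 476, 444 and 581 CPM in *Ahr* HKO Con and at 574, 520 and 525 in *Ahr* HKO EtOH, with overlap (0.11 ± 0.14, adjusted *P* = 0.572). In WT, *Sdhc* stood at 138, 135 and 129 CPM on the control diet and at 188, 172 and 155 with ethanol, which do not overlap but did not pass the test (0.35 ± 0.10, adjusted *P* = 0.0750). Without liver 2 of *Ahr* HKO Con, none of the 4 was called, and the median of the complex was 0.35.

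Complex III, ubiquinol-cytochrome c reductase, had 1 of 8 members called with ethanol in *Ahr* HKO. That count is near the 15% of all tested genes that rose, while all 8 were positive in a narrow range of 0.24 to 0.45. *Uqcr11*, the smallest subunit, was at 129, 101 and 141 CPM in *Ahr* HKO Con and at 163, 176 and 167 in *Ahr* HKO EtOH (0.45 ± 0.14, adjusted *P* = 0.0487). *Uqcrc1*, a core protein, had 233, 198 and 276 CPM in *Ahr* HKO Con and 309, 303 and 308 in *Ahr* HKO EtOH (0.38 ± 0.14, adjusted *P* = 0.0758), and *Uqcrfs1*, the Rieske iron-sulphur protein, had 0.32 ± 0.12 (adjusted *P* = 0.0819). Without liver 2 of *Ahr* HKO Con, 0 of 8 were called in edgeR, with a median of 0.28 and all 8 positive. In WT the complex had 3 of 8 positive and no call, with a median of −0.03. The groups of *Uqcrc1* did not overlap with ethanol in *Ahr* HKO, but the 3 Con livers spread over a wide range and liver 3 lay close to the WT livers.

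Complex IV, cytochrome c oxidase, had 3 of 13 tested members called with ethanol in *Ahr* HKO, the supernumerary subunits *Cox6a1* (0.45 ± 0.13, adjusted *P* = 0.0404), *Cox6c* (0.44 ± 0.13, adjusted *P* = 0.0354) and *Cox5a* (0.39 ± 0.12, adjusted *P* = 0.0395). With all livers, 15% of all tested genes rose in this comparison. Without liver 2 of *Ahr* HKO Con, 0 of 13 were called in edgeR, with a median of 0.28 and 12 of 13 positive. *Cox6a1* was at 256, 272 and 256 CPM in WT Con, 311, 275 and 294 in WT EtOH, 248, 208 and 280 in *Ahr* HKO Con and 323, 350 and 337 in *Ahr* HKO EtOH. *Cox4i1*, which binds regulatory nucleotides, was at 385, 308 and 390 CPM in *Ahr* HKO Con and at 456, 464 and 484 in *Ahr* HKO EtOH and did not pass the test (0.37 ± 0.13, adjusted *P* = 0.0638). The complex had the highest WT median with ethanol of the 5, at 0.09, with 9 of 13 positive and no call. *Cox7a2* had the lowest log2 FC of the 78 with ethanol in *Ahr* HKO (0.02 ± 0.15, adjusted *P* = 0.945). *Cox7a2l*, a factor of supercomplex assembly and not a subunit, was at 86.9, 68.3 and 69.1 CPM in *Ahr* HKO Con and 83.4, 87.2 and 78.5 in *Ahr* HKO EtOH.

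The isoform families of complex IV were made up mostly of the liver form. *Cox7a1*, the heart and muscle form, made up 0.823% ± 0.159 (SD, n = 3) of the summed FPKM of *Cox7a1* and *Cox7a2* in WT Con, 1.14% ± 0.243 in WT EtOH, 0.679% ± 0.201 in *Ahr* HKO Con and 1.17% ± 0.0268 in *Ahr* HKO EtOH. The difference between the diets in *Ahr* HKO reached an exact two-sided permutation *P* of 0.1, which is the smallest that 3 against 3 livers allow, and 0.96 after adjustment over 36 such tests. These shares rest on 18 to 52 counts per library. *Cox4i1*, *Cox6a1*, *Cox6b1* and *Cox8a* each held over 99.9% of their family in every group mean.

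Complex V, ATP synthase, had 8 of 17 members called with ethanol in *Ahr* HKO, and 1 of 17 without liver 2 of *Ahr* HKO Con. Of the 10 members of the membrane part and stalk, 6 rose, with a median of 0.39, and of the 5 of the catalytic head, 1 rose, *Atp5c1* of the rotor shaft, with a median of 0.31. The eighth was *Atp5sl*, which is not a subunit. *Atp5h*, a stalk subunit, was at 122, 106 and 137 CPM in *Ahr* HKO Con and at 166, 165 and 175 in *Ahr* HKO EtOH (0.47 ± 0.12, adjusted *P* = 0.0255), and *Atp5o*, which joins head and stalk, rose by 0.46 ± 0.12 (adjusted *P* = 0.0296). The catalytic pair did not pass. *Atp5b* was at 974, 885 and 1118 CPM in *Ahr* HKO Con and at 1248, 1199 and 1234 in *Ahr* HKO EtOH (0.31 ± 0.13, adjusted *P* = 0.117), and *Atp5a1* had 0.27 ± 0.14 (adjusted *P* = 0.173). In WT the complex had 12 of 17 positive, with a median of 0.03.

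The c subunit of the membrane ring is encoded by *Atp5g1*, *Atp5g2* and *Atp5g3*, which differ in their import peptides. *Atp5g3* held 57.9% to 60.5% of their summed FPKM in the group means, *Atp5g1* 19.2% to 23.8% and *Atp5g2* 18.2% to 20.3%. None of their 12 exact permutation tests went below *P* = 0.2, and all adjusted values were 0.96 or 1. *Atp5g1* was the most variable abundant member, with a coefficient of variation within groups of 26.8% against a median of 8.52% over the 78 members. It ran from 76.3 to 121 CPM in WT Con, 81.9 to 138 in WT EtOH, 70.3 to 129 in *Ahr* HKO Con and 101 to 161 in *Ahr* HKO EtOH, so its groups overlapped throughout. Of the 3 genes only *Atp5g2* was called with ethanol in *Ahr* HKO (0.37 ± 0.11, adjusted *P* = 0.0424).

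*Atp5sl*, named for its likeness to an ATP synthase factor but known as an assembly factor of the complex I membrane arm, was the member with the largest interaction. Its CPM was 40.5, 39.3 and 41.3 in WT Con, 26.8, 27.7 and 25.8 in WT EtOH, 23.7, 22.6 and 24.2 in *Ahr* HKO Con and 29.7, 35.5 and 36.2 in *Ahr* HKO EtOH. No pair of groups overlapped. It fell by 0.59 ± 0.08 (adjusted *P* = 0.00869) with ethanol in WT and by 0.78 ± 0.08 (adjusted *P* = 0.00123) in *Ahr* HKO Con against WT Con, and it rose by 0.52 ± 0.10 (adjusted *P* = 0.0108) with ethanol in *Ahr* HKO. *Atp5s*, the coupling factor B, was low at 2.14 FPKM on average, and its CPM was 3.21 to 4.09 in WT Con and 2.28 to 2.90 in *Ahr* HKO Con, without a call.

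**Figure D4:**
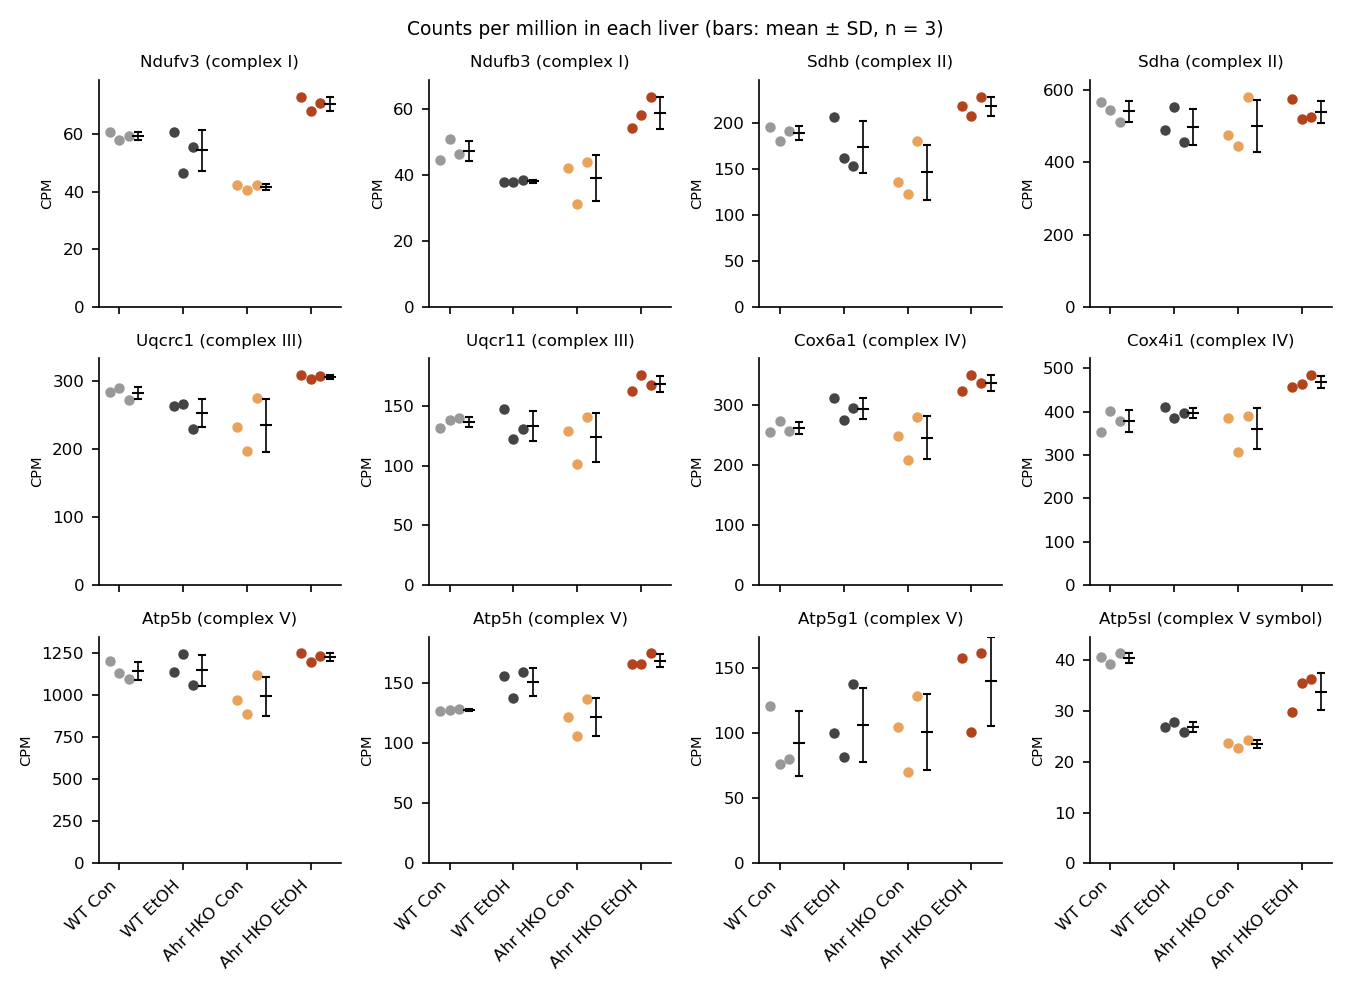
CPM of 12 members in each liver (points) by group, with mean ± SD (n = 3) beside them and axes starting at 0. *Atp5sl* separates all groups, and *Ndufv3* separates all but the diets in WT. *Ndufb3*, *Sdhb*, *Uqcr11* and *Cox6a1* are highest in *Ahr* HKO EtOH, and *Sdha* and *Atp5g1* overlap between groups.

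Whether the response to ethanol differed between the genotypes was tested as an interaction over all 12 livers. It was positive, meaning a larger log2 FC in *Ahr* HKO, for 76 of 78 members, with a median of 0.35, and 15 members were called, all positive. That is 19.2% of the members, where 11.2% of all tested genes were called positive and 11.1% negative. At an unadjusted *P* under 0.05 in edgeR, 42 members were positive and none negative, beside 5105 of 14038 tested genes in both directions. DESeq2 called 29 members positive and none negative, and the share of all genes that it called is not given here. By complex, 10 of 36 members of complex I were called, 1 of 4 of complex II (*Sdhb*), 1 of 8 of complex III (*Uqcrc1*), 1 of 13 of complex IV (*Cox7b*) and 2 of 17 of complex V (*Atp5j* and *Atp5sl*). The largest values belonged to *Atp5sl* at 1.12 ± 0.12 (adjusted *P* = 3.4e-04), *Ndufb3* at 0.90 ± 0.17 (adjusted *P* = 0.00496) and *Ndufv3* at 0.89 ± 0.13 (adjusted *P* = 0.00154). The comparisons share livers, and 12 of the 15 were also called with ethanol in *Ahr* HKO. The call of *Ndufs8*, an iron-sulphur subunit of the quinone branch, came with a log2 FC of −0.26 in WT and 0.17 in *Ahr* HKO, neither of which passed by itself. On log2(FPKM + 1), where the median of all genes shifted by −0.14, limma called 4 members, and its share over all genes is not given here.

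**Figure D5:**
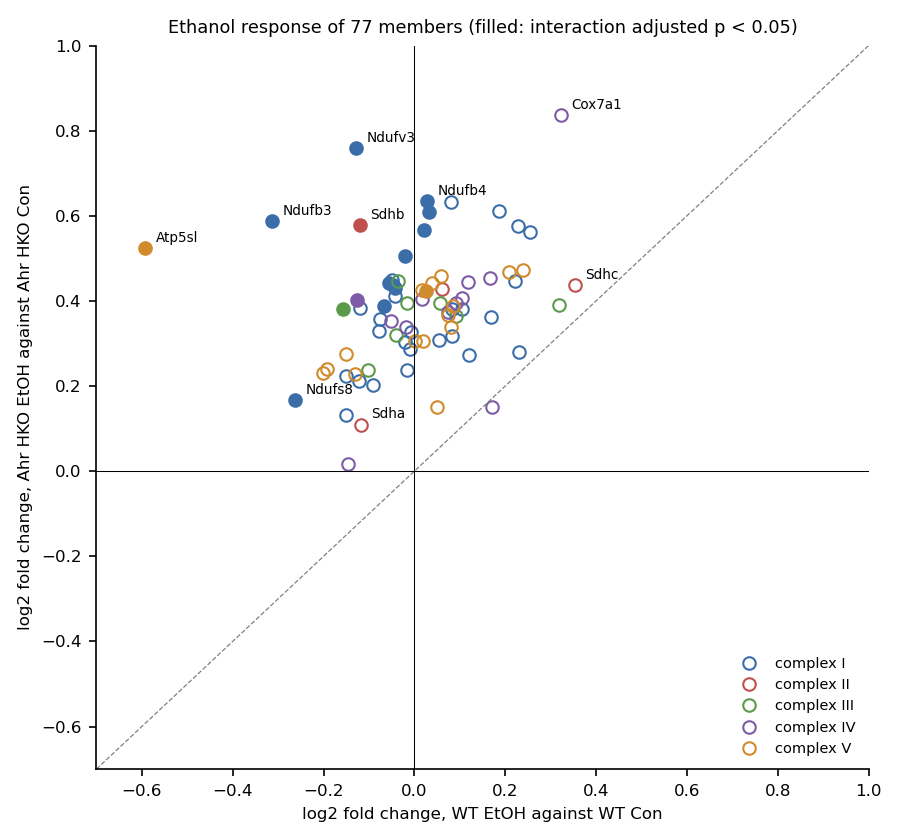
log2 FC with ethanol in *Ahr* HKO (vertical) against that in WT (horizontal) for 77 tested members, each a point coloured by complex and filled where the interaction was called, with equal responses on the dashed line. All plotted points but *Cox7a2l* lie above the line, around 0 in WT and between 0 and 0.85 in *Ahr* HKO.

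Genes that serve the chain without matching the symbols were taken from fixed lists, and the mitochondrially encoded subunits were not analysed here. With ethanol in *Ahr* HKO, 3 of 11 electron carriers and entry points rose, 4 of 15 complex I assembly factors rose and 1 fell, 2 of 4 rose for complex II, 4 of 6 for complex III, 7 of 22 rose and 1 fell for complex IV, and none of 3 rose and 1 fell for complex V. Of 8 carriers of nucleotides, phosphate and protons 1 rose, and of 13 genes of coenzyme Q synthesis 4 rose and 2 fell. Of all tested genes 15% rose and 16.1% fell, and several of these lists lie near those shares. The medians of these lists lay between 0.18 and 0.40, beside −0.02 over all genes. On the control diet, 5 of 15 complex I assembly factors, 3 of 4 of complex II, 2 of 6 of complex III and 2 of 22 of complex IV were lower in *Ahr* HKO and none was higher, where 14.4% of all tested genes were lower and 15.3% higher.

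*Bcs1l*, which inserts the Rieske protein into complex III, was at 8.20, 7.49 and 7.22 CPM in *Ahr* HKO Con and at 14.0, 12.2 and 12.7 in *Ahr* HKO EtOH (0.76 ± 0.12, adjusted *P* = 0.00474). *Higd2a*, a factor of complex IV and supercomplex assembly, was at 34.8, 35.3 and 37.0 CPM in *Ahr* HKO Con and at 53.0, 61.4 and 57.0 in *Ahr* HKO EtOH (0.68 ± 0.09, adjusted *P* = 0.00372). Liver 2 was not the lowest *Ahr* HKO Con liver for *Higd2a*. *Cyc1* had an interaction of 0.55 ± 0.16 (adjusted *P* = 0.0274), and *Ndufab1* rose by 0.44 ± 0.09 (adjusted *P* = 0.0137) with ethanol in *Ahr* HKO. *Prodh*, which feeds electrons from proline, was at 84.2, 73.7 and 113 CPM in *Ahr* HKO Con and at 254, 218 and 293 in *Ahr* HKO EtOH (1.49 ± 0.19, adjusted *P* = 0.00303). *Atpif1*, the inhibitor of ATP synthase, was lower in *Ahr* HKO Con than in WT Con (−0.54 ± 0.11, adjusted *P* = 0.0117) and rose with ethanol in *Ahr* HKO (0.61 ± 0.14, adjusted *P* = 0.0154).

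In coenzyme Q synthesis, the kinase-like pair *Adck3* and *Adck4* went in opposite directions. *Adck3* was at 36.3 to 40.4 CPM in *Ahr* HKO Con and at 132 to 440 in the other 9 livers. *Adck4* was at 39.1 to 80.0 CPM in *Ahr* HKO Con and at 17.7 to 21.6 in the others. On the control diet *Adck3* was lower in *Ahr* HKO (−2.44 ± 0.27, adjusted *P* = 0.00149) and *Adck4* higher (1.81 ± 0.26, adjusted *P* = 0.00331).

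The cell markers moved as follows. All 6 Kupffer cell markers fell with ethanol in *Ahr* HKO, and their summed level was 257 to 753 CPM in *Ahr* HKO Con, 155 to 196 in *Ahr* HKO EtOH, 288 to 377 in WT Con and 255 to 675 in WT EtOH. Of 5 leukocyte markers 3 fell, from a sum of 17.6 to 30.8 CPM to 7.74 to 9.48. Of 7 hepatocyte markers, 1 rose and none fell, with sums of 70394 to 112310 CPM in *Ahr* HKO Con and 100002 to 108470 in *Ahr* HKO EtOH. Of 6 stellate markers 1 rose, and 1 of 5 sinusoidal endothelial and 1 of 4 cholangiocyte markers fell. In this comparison 15% of all tested genes rose and 16.1% fell, so a count of 1 marker says little about its cell type. Of 5 adipocyte markers, *Ucp1* and *Plin1* were at 0 and the sum was at most 3.01 CPM outside *Ahr* HKO Con, where *Cfd* reached 34.7 in liver 1. The part of these cells in the members' values was not tested.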

How the data were processed

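RNA-seq of 12 mouse livers, 3 per group, was analysed from a table of 24532 genes in which the authors deposited raw read counts, FPKM and TPM per gene and library. The submitters' notes list FastQC 0.11.7, Trimmomatic 0.38, HISAT2 2.1.0, Bowtie2 2.3.4.1, StringTie 1.3.4d and mm10. The deposited counts carry no normalization. The deposited FPKM are the authors' counts scaled to gene length and library, and the deposited TPM, whose sums were 924962 to 987569, entered no result. Groups came from the labels, which name no batch. Libraries differed beyond counting noise and none was a copy of another. A level of 3 counts is 0.0404 to 0.0648 CPM, for counting error only.

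Genes were filtered with filterByExpr, scaled with TMM and tested in edgeR 4.0.16 (R 4.3.3) by quasi-likelihood, each pair of groups with its 6 libraries and the interaction with all 12, with Benjamini-Hochberg adjustment over 14038 genes. SE is the log2 FC over the square root of F. Alternatives used DESeq2 1.42.0, limma 3.58.1 and others given at the end. Fits were tested on simulated data. Within these data, members and gene lists were chosen with earlier results known. Named genes are, per complex and comparison, up to 3 called rises and falls, lead subunits, isoform families, the highest and lowest FPKM, and up to 4 called genes per other list. Others named (*Ndufs7*, *Ndufs8*, *Ndufv2*, *Cox7a2l*, *Atp5c1*) were chosen after their values were seen. Shared windows were computed from GENCODE M21 transcripts. Whether livers with the same number pair was checked by correlating deviations from group means, and 2 of 18 such pairs exceeded 0.1. Both were between WT EtOH and *Ahr* HKO EtOH, at 0.285 for liver 1 and 0.195 for liver 2. Values of 1 member are not reported here by name or in the plot of fold changes by gene, and it stays in the counts and medians.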

Additional observations from a re-analysis of the deposited data

Results flagged for a closer look

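The following members responded to ethanol differently in the genotypes by the interaction in edgeR, given as the log2 FC in *Ahr* HKO less that in WT, with adjusted *P* values under 0.05 over all tested genes. In complex I these were *Ndufb3* (0.90), *Ndufv3* (0.89), *Ndufb4* (0.61), *Ndufa6* (0.58), *Ndufa11* (0.54), *Ndufb6* (0.52), *Ndufs7* (0.50), *Ndufv2* (0.47), *Ndufv1* (0.46) and *Ndufs8* (0.43). In the others they were *Sdhb* (0.70), *Uqcrc1* (0.54), *Cox7b* (0.53), *Atp5j* (0.40) and *Atp5sl* (1.12). *Atp5sl*, *Ndufb3* and *Ndufs8* combined a negative log2 FC in WT (−0.59, −0.31 and −0.26) with a positive one in *Ahr* HKO (0.52, 0.59 and 0.17). *Atp5sl*, *Ndufv3*, *Ndufb3* and *Ndufb4* kept the call in all 8 alternative settings and in all 12 fits without a liver. *Uqcrc1* and *Cox7b* kept it in 3 of the 8 and in 1 of the 12, and *Sdhb* in 6 of the 8 and in 2 of the 12.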

How the results depend on the processing

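In WT, DESeq2 called 2 members higher and 2 lower with ethanol, limma on log2(FPKM + 1) or log2(FPKM + 0.1) called 8 higher and 0 lower, and limma on quantile-normalized values called 2 lower. For *Ahr* HKO Con against WT Con, lower members numbered 5 with DESeq2, 12 with upper-quartile scaling and 7 each with the single fit of all 12 libraries and with quantile normalization. For *Ahr* HKO EtOH against WT EtOH, DESeq2 called 17 higher, the single fit 4 and the 3 limma settings 0. For ethanol in *Ahr* HKO, DESeq2 called 48, the single fit 54 and quantile-normalized limma 14. For the interaction, DESeq2 called 29, upper-quartile scaling 28 and limma on both unnormalized FPKM scales 4. The cause of these differences was not tested. The share of all genes called by each fit in this section is not given here. A higher count of members is therefore not by itself a stronger result for the chain. The replicate number as a block (the sample titles name no pairing) gave 13 higher with ethanol in *Ahr* HKO and 10 in the interaction. Leaving out each liver in turn gave 0 higher and 1 lower in WT each time, 2 to 9 lower for *Ahr* HKO Con, 0 to 1 higher for *Ahr* HKO EtOH against WT EtOH, 9 to 43 for ethanol in *Ahr* HKO and 5 to 32 for the interaction. The counts 9 came without liver 2 or 3 of *Ahr* HKO EtOH, 12 without liver 1 of it and 15 without liver 1 of *Ahr* HKO Con. Fits without liver 3 of *Ahr* HKO Con gave the 9, 43 and 32. Of 33 named calls, none changed sign, 9 held throughout and 24 were lost at least once. Calls at other depths were not tested, and *Cox7a1* (18 to 52 counts per library) and *Cox6b2* (0 to 20) rest on few counts.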

Other observations

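*Nnt*, the nicotinamide nucleotide transhydrogenase of the inner membrane, was outside the pattern of the chain. Its CPM was 40.9, 41.2 and 31.4 in WT Con, 59.7, 60.0 and 56.2 in WT EtOH, 80.2, 56.7 and 74.9 in *Ahr* HKO Con and 92.3, 89.3 and 113 in *Ahr* HKO EtOH. It rose with ethanol in WT (log2 FC 0.63 ± 0.12, adjusted *P* = 0.0243 in edgeR) and was higher in *Ahr* HKO than in WT on both diets (0.90 ± 0.17, adjusted *P* = 0.00785 and 0.74 ± 0.12, adjusted *P* = 0.0436). *Slc25a4*, the ADP/ATP carrier that is the minor form in liver, had a negative interaction (−0.78 ± 0.21, adjusted *P* = 0.0253), at 5.46, 7.35 and 7.37 CPM in WT EtOH and 3.56, 4.54 and 3.59 in *Ahr* HKO EtOH.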
